A study of Mus musculus with 6 samples.

Results

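Neutrophils are short-lived phagocytes that leave the bone marrow under the control of the cytokine G-CSF and enter tissue along gradients of CXC chemokines. Their cytoplasm is rich in calprotectin, the complex of S100a8 and S100a9, which binds calcium, zinc and manganese and signals through Toll-like receptor 4 once released. Calprotectin and lipocalin 2 are not restricted to neutrophils, since stressed keratinocytes make the former and mammary and other epithelia make the latter.

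The 8 genes described here were taken by gene symbol from the 15280 genes of the deposited expression table, and all 8 had a row. They are S100a8 and S100a9 (the calprotectin subunits), Lcn2 (lipocalin 2, which binds bacterial siderophores), Retnlg (resistin-like gamma, a secreted protein of mature neutrophils), Csf3r (the G-CSF receptor), Trem1 (an activating receptor that amplifies inflammatory signals) and Clec4d and Clec4e (the C-type lectins MCL and Mincle, which recognize mycobacterial glycolipids). On mm9, S100a8 lies on the plus strand at chr3:90472993-90473956 and S100a9 on the minus strand at chr3:90496554-90499643, while Clec4d and Clec4e also neighbor each other, on the plus strand at chr6:123212125-123225286 and the minus strand at chr6:123231807-123239889. Lcn2 lies on the minus strand at chr2:32240153-32243317, Csf3r on the plus strand at chr4:125701794-125722219, Retnlg on the plus strand at chr16:48872721-48874611 and Trem1 on the plus strand at chr17:48371903-48386091. These are whole-gene spans, and no exon of the 8 genes overlapped an exon of another gene of the table. The closest transcript of another gene was that of Retnla for Retnlg, with 84.1% identity over 566 bp.

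The study sequenced RNA from 3 parous BK5.ATF3 transgenic female mice, in which the bovine keratin 5 promoter drives ATF3, a stress-induced transcription factor, in basal epithelial cells. Each mouse had raised 1 litter and carried a mammary tumor, which was taken at a length of 1.5 cm and in most such mice arose at an age of 6 to 12 months. From each mouse came 1 tumor (libraries T11035, T11640 and T9232) and the adjacent normal mammary gland (M11035, M11640 and M9232), so n = 3 mice for each tissue. Both tissues carried the transgene, so what was compared is 2 tissues of transgenic mice, with no wild-type control.

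Expression is given in CPM, in which fragments are scaled to edgeR's effective library size. The depth was 4750989 to 7806908 fragments on genes per library, and 3 fragments, used here as the detection floor, equal 0.393 to 0.610 CPM. A gene was called at a Benjamini-Hochberg adjusted p of at most 0.05 and a log2 fold change (tumor minus gland) of at least 1 in either direction, in a limma fit over all genes on log2(CPM + 0.5). The pseudocount of 0.5 makes the fold change of low genes too small. By this rule 14.5% of all genes were called higher and 13.7% lower in the tumors, and all 3 tumors lay above all 3 glands for 27.6% and below them for 26.3% of the genes. The tissues also differed in cell type markers. All 12 keratinocyte markers were called higher (summed CPM of 45.5 to 103 in glands and 4225 to 5910 in tumors), all 8 adipocyte markers lower (3296 to 6442 and 149 to 207), all 6 B cell and all 6 T cell markers lower, and 3 of 8 pan-leukocyte markers lower (1924 to 3386 and 1259 to 1762). Bulk RNA cannot tell fewer cells of a type from less RNA per cell.

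The promoters of the members were searched for 6 short motifs because the members did not move together. The sequences are those of RefSeq (GRCm38.p6, 250 bases before to 50 after the annotated start), in which all 8 members were found, and both strands were read. The C/EBP motif (TTNNGCAA), named for a factor family active in granulocyte differentiation, was present in 4 of the 8 promoters and in 10.8% of 32851 promoters. These 4 windows are shown 5′ to 3′ on the strand of the gene, with the motif or its reverse complement in capitals, since they belong to members with 3 different outcomes.
S100a9: ggtaggctgtcTTGCTTAAgatttgggcgg
Clec4e: actccttgtccTTGTGCAAgagaggaaatt
Lcn2: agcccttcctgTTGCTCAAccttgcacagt
Retnlg: agctTTCTGCAAggcattccaggcacctcc
On GRCm38.p6 the windows lie at chr3:90695939-90695968 on the minus strand for S100a9, chr6:123289919-123289948 on the minus strand for Clec4e, chr2:32387937-32387966 on the minus strand for Lcn2 and chr16:48872358-48872387 on the plus strand for Retnlg. The motif begins 236, 66, 216 and 246 bases before the annotated start, respectively. S100a9 and Clec4e were called higher, Lcn2 was called lower and Retnlg was not called, so the letters were present under each outcome. The Lcn2 call was lost in 7 of 15 alternatives. The letters of the TATA box (TATAAA) were found in 3 of the 8 promoters and 13.6% of all, and the ETS motif bound by PU.1 (GAGGAA) in 6 of 8 and 28.3% of all. TATAAA began 30 and 29 bases before the annotated start in S100a8 and Clec4e. In S100a9 it began at base 1, the annotated start itself. The letters searched for AP-1 (TGANTCA, 7.81% of all promoters), for an ATF/CRE site (TGACGTCA, 1.79%) and for NF-kB (GGGNN followed by TTTCC, 1.63%) were in 0 of the 8 windows. A match, or none, describes these letters in these windows and nothing more.

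Of the 8 genes, 6 were called higher in the tumors (S100a8, S100a9, Csf3r, Trem1, Clec4d and Clec4e), and in each of these all 3 tumors lay above all 3 glands. Lcn2 was called lower, and Retnlg was not called. edgeR's quasi-likelihood test on the recovered fragments called the same 6 higher and the same 1 lower, beside 14.6% of all genes higher and 14.6% lower. The 8 genes had a median log2 fold change of 3.46 beside -0.0028 over all genes.

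**Figure D1:**
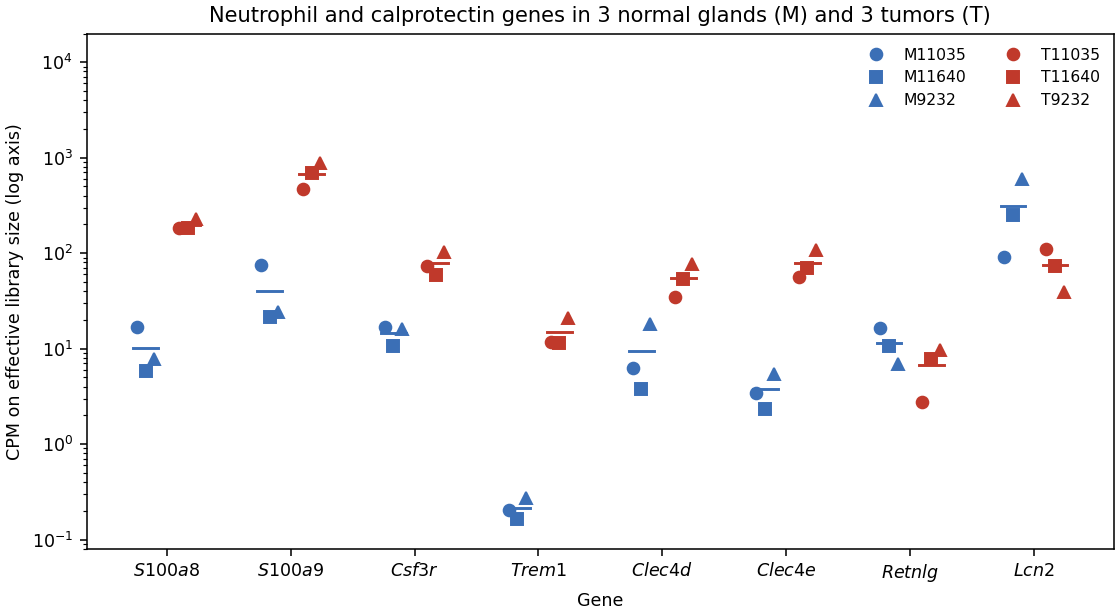
CPM on the effective library size (log axis) of the 8 genes in each library, with glands (M) in blue, tumors (T) in red, 1 marker shape for each mouse. The tumors lie above the glands for S100a8, S100a9, Csf3r, Trem1, Clec4d and Clec4e, while both tissues overlap for Retnlg and Lcn2.

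The calprotectin genes made up most of the tumor signal of the group. S100a8 measured 16.9, 5.78 and 7.80 CPM in M11035, M11640 and M9232 and 183, 182 and 226 CPM in T11035, T11640 and T9232. S100a9 measured 76.0, 21.3 and 23.9 CPM in these glands and 468, 692 and 888 CPM in these tumors. Neither gene overlapped between the tissues, and the gland M11035 was the highest of the glands for both.

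For S100a8 the means were 10.2 ± 5.91 CPM in glands and 197 ± 25.3 CPM in tumors (SD, n = 3 each), a ratio of 19.4 and a log2 fold change of 4.34 (SE 0.34, adjusted p = 2.90e-05, limma). For S100a9 they were 40.4 ± 30.9 and 683 ± 210 CPM (SD, n = 3 each), a ratio of 16.9 and a log2 fold change of 4.26 (SE 0.45, adjusted p = 1.46e-04, limma). The rise was seen in each of the 3 mice. Between M11035 and T11035, M11640 and T11640, and M9232 and T9232 it was 3.40, 4.86 and 4.77 on the log2 scale for S100a8 and 2.61, 4.99 and 5.18 for S100a9. It was smallest for both genes in the mouse of M11035, whose gland was high and whose tumor was the lowest for S100a9.

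The proteins pair with each other, and their transcripts kept a similar ratio. Per kb of exon, the level of S100a9 was 2.82 ± 0.541 times that of S100a8 in glands and 2.58 ± 0.568 times in tumors (SD, n = 3 each), and the tissues overlapped. S100a8 and S100a9 together took 40.9%, 8.85% and 4.73% of the summed CPM of the 8 genes in M11035, M11640 and M9232. In T11035, T11640 and T9232 they took 69.2%, 76.0% and 75.7%. In M11640 and M9232 it was Lcn2 that took most of the sum, with 82.1% and 88.3%.

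Other S100 genes were higher in the tumors as well. Of 13 other S100-list genes with a row, 7 were called higher, 2 lower and 4 not (of all genes, 14.5% higher and 13.7% lower). The 13 had a median log2 fold change of 1.03. S100a14, an epithelial member, had the highest fold change of the family, from 0.407, 0 and 1.37 CPM in the glands to 119, 175 and 188 CPM in the tumors (log2 fold change 7.38, adjusted p = 7.71e-06, limma). The lowest was S100b, a glial, melanocyte and adipocyte member, at 9.67 ± 6.19 CPM in glands and 1.37 ± 0.894 CPM in tumors (SD, n = 3 each, log2 fold change -2.36, adjusted p = 0.00942, limma). Of the other genes of the chromosome 3 cluster, named after their values were seen, S100a6 rose by 2.81, S100a16 by 2.24 and S100a11 by 1.38 on the log2 scale, each with all tumors above all glands. In the same cluster S100a1 fell by 2.22 (adjusted p = 3.85e-04, limma), and S100a13, with a log2 fold change of -0.95, was not called, although all tumors lay below all glands for both. S100a7a, which epidermis makes, was at 0, 0.496 and 0.137 CPM in the glands, at or below the floor, and at 5.58, 13.9 and 11.2 CPM in the tumors. S100a3 was at 0 in all 3 glands and 2.98 to 8.52 CPM in tumors, at least 35.6-fold higher against a floor of 3 fragments over the 3 glands. S100a1, S100a13, S100a7a and S100a3 were also named after their values were seen.

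Keratinocyte markers moved the same way as the calprotectin genes in every mouse. All 12 were called higher. Lor, which encodes the cornified envelope protein loricrin, was at 0 in the 3 glands, while Krt5, the basal keratin, was present in them at 9.96 to 36.1 CPM and reached 913 to 1055 CPM in the tumors. Their part in the rise of S100a8 and S100a9 was not tested, and the keratinocyte and neutrophil contributions to these transcripts cannot be told apart in bulk RNA.

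None of the genes for the receptors of calprotectin was called higher. Of 8 listed genes for calprotectin and lipocalin 2 receptors and adaptors with a row, 0 were called higher, 2 lower and 6 not. This stood beside 14.5% of all genes higher and 13.7% lower, so the counts are near those shares. The 8 genes had a median log2 fold change of -0.02. At an unadjusted p under 0.05, 1 was higher and 2 were lower, and edgeR and DESeq2 each called 0 higher and 2 lower. Tlr4, the Toll-like receptor, measured 52.5, 112 and 119 CPM in the glands and 80.2, 81.3 and 88.7 CPM in the tumors (log2 fold change -0.09, adjusted p = 0.826, limma). The tumor values lay inside the range of the glands. Its co-receptor Ly96 (MD-2) had a fold change of -0.15, the co-receptor Cd14 of 0.82, the adaptor Myd88 of 0.90 and the immunoglobulin receptor Bsg (basigin) of 0.06 on the log2 scale, none of them called. Myd88 came closest, with all tumors above all glands and an adjusted p of 0.00942 (limma), but a log2 fold change below 1. Cd36, a scavenger and fatty acid receptor abundant in adipocytes, fell from 2228 ± 839 to 97.6 ± 31.4 CPM (SD, n = 3 each, log2 fold change -4.50, adjusted p = 1.81e-05, limma). Ager, which encodes the receptor RAGE, was not analysed here.

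Csf3r, which carries the G-CSF signal for granulocyte production and survival, measured 16.9, 10.7 and 16.1 CPM in the glands and 73.7, 59.5 and 103 CPM in the tumors, in the order of the mice given above. The lowest tumor lay well above the highest gland. The means were 14.6 ± 3.35 and 78.7 ± 22.1 CPM (SD, n = 3 each), a ratio of 5.39 and a log2 fold change of 2.38 (SE 0.25, adjusted p = 1.47e-04, limma). The within-mouse rises of 2.09, 2.42 and 2.63 on the log2 scale were the most even of the 6 genes by range.

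Of the 6 other hematopoietic cytokine receptors on the list of Csf3r with a row, limma called 0 higher, 1 lower and 5 not, beside 14.5% of all genes higher and 13.7% lower, so the counts are near those shares. At an unadjusted p under 0.05, 0 were higher and 1 was lower, and edgeR and DESeq2 each called 0 higher and 1 lower. Csf1r, the receptor of macrophages, measured 35.0, 76.1 and 109 CPM in glands and 56.6, 87.7 and 102 CPM in tumors (log2 fold change 0.26, adjusted p = 0.627, limma). Csf2ra, which with Csf2rb binds GM-CSF, had a log2 fold change of 0.33, and Csf2rb and the related Csf2rb2 had 0.18 and -0.07. None of these 4 separated the tissues. Il5ra, the eosinophil receptor chain, had a log2 fold change of -0.57 and was not called, and Kit, the stem cell factor receptor of mast cells and luminal progenitors, fell by 1.28 (adjusted p = 0.00719, limma). Directions for Csf1r, Csf2ra and Csf2rb2 turned when single libraries were left out.

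The ligand of Csf3r was at the edge of detection. Csf3 (G-CSF) had 2 fragments over the 3 glands and 19 over the 3 tumors, a pooled ratio of 8.83 with an exact 95% interval of 2.13 to 78.2, which covers counting error only. Its log2 fold change of 1.23 was not called (adjusted p = 0.0808, limma), and the values were 0, 0 and 0.274 CPM in glands and 0.930, 0.262 and 1.80 CPM in tumors. Other signals that draw neutrophils were higher. Of 15 ligands of granulopoiesis and neutrophil recruitment with a row, 9 were called higher, 2 lower and 4 not. These counts stood beside 14.5% of all genes higher and 13.7% lower. The 15 ligands had a median log2 fold change of 3.07.

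Cxcl5, a ligand of Cxcr2, had the highest fold change of these ligands, from 0.813, 0 and 1.92 CPM in the glands to 141, 99.9 and 117 CPM in the tumors (log2 fold change 6.67, adjusted p = 2.30e-05, limma). Cxcl12, which retains neutrophils in bone marrow, had the lowest, at 185 ± 9.11 CPM in glands and 47.5 ± 11.2 CPM in tumors (SD, n = 3 each, log2 fold change -1.98, adjusted p = 7.03e-05, limma). Named after their values were seen, Cxcl1, Cxcl2 and Cxcl3, which also signal through Cxcr2, rose by 3.45, 5.68 and 4.94 and the inflammatory cytokine Il1b by 5.24 on the log2 scale. Ppbp, another ligand of Cxcr2, was not called (log2 fold change -0.57, adjusted p = 0.395, limma). Csf2, Il17a and Il17f were not analysed here.

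Trem1 was close to undetected in the glands, with 1, 1 and 2 fragments (0.203, 0.165 and 0.274 CPM) in M11035, M11640 and M9232. The tumors of the same mice measured 11.7, 11.5 and 21.1 CPM. The glands were all below the floor of 3 fragments and the tumors all far above it. Over the 3 libraries of each tissue, 292 fragments in tumors stood against 4 in glands, a pooled ratio of 67.8 with an exact 95% interval of 26.2 to 251 (counting error only). The limma log2 fold change of 4.37 (SE 0.32, adjusted p = 2.08e-05) depends on the pseudocount and ran from 3.65 to 6.09 over the alternatives, with the call kept in all 15.

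Of the 7 other genes on the TREM family list with a row, 2 were called higher, 1 lower and 4 not, beside 14.5% of all genes higher and 13.7% lower. Trem2, a lipid-sensing receptor of macrophages, measured 2.64, 2.31 and 4.38 CPM in glands and 2.61, 3.80 and 9.29 CPM in tumors, and the tissues overlapped (log2 fold change 0.53, adjusted p = 0.366, limma). Cd300lf and Cd300ld, relatives on myeloid cells, rose by 1.82 and 1.17 on the log2 scale (the Cd300ld call was lost without M11035, at 0.97), while Cd300lb (0.45) and Treml4 (0.49) were not called. Treml2, which B cells and neutrophils carry, fell by 1.79 (adjusted p = 0.00293, limma). Pglyrp1, a neutrophil granule protein and a ligand of Trem1, was not called, although all tumors lay below all glands (5.69 ± 1.42 and 3.00 ± 0.850 CPM, SD, n = 3 each, adjusted p = 0.0599, limma).

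Clec4d measured 6.30, 3.80 and 18.1 CPM in M11035, M11640 and M9232 and 34.4, 54.0 and 77.3 CPM in the tumors. Clec4e measured 3.46, 2.31 and 5.47 CPM in these glands and 56.0, 70.2 and 108 CPM in these tumors. Both genes separated the tissues, and M9232 was the highest gland and T9232 the highest tumor for each.

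The means of Clec4d were 9.39 ± 7.61 and 55.2 ± 21.5 CPM (SD, n = 3 each), a ratio of 5.89 and a log2 fold change of 2.70 (SE 0.51, adjusted p = 0.00326, limma). Those of Clec4e were 3.75 ± 1.60 and 78.2 ± 27.1 CPM (SD, n = 3 each), a ratio of 20.9 and a log2 fold change of 4.23 (SE 0.33, adjusted p = 2.98e-05, limma). The Mincle and MCL proteins form a complex, but their transcripts did not keep a fixed ratio. Per kb of exon, the level of Clec4e was 0.258 ± 0.0859 times that of Clec4d in glands and 0.766 ± 0.0885 times in tumors (SD, n = 3 each), and the tissues did not overlap in this ratio. The smallest two-sided p that an exact permutation test of 3 against 3 libraries allows is 0.1, so no test is given for a single ratio.

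Of the 12 other C-type lectin genes of the Dectin clusters with a row, 4 were called higher, 2 lower and 6 not. This stood beside 14.5% of all genes higher and 13.7% lower. The 12 lectin genes had a median log2 fold change of 0.56. Olr1 (LOX-1), a lectin-like receptor for oxidized lipoprotein, had the highest fold change, from 4.88, 5.12 and 6.02 CPM to 73.1, 284 and 360 CPM (log2 fold change 5.08, adjusted p = 1.12e-04, limma). Clec9a, of cross-presenting dendritic cells, had the lowest at -2.48 (adjusted p = 9.27e-05, limma). Clec4n (Dectin-2) and Clec7a (Dectin-1), named after their values were seen, rose by 2.20 and 1.62 on the log2 scale.

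Trem1, Clec4d and Clec4e signal through ITAM adaptors, and the lectins further through CARD9. Of 17 genes for these adaptors and kinases, 4 were called higher, 0 lower and 13 not (beside 14.5% of all genes higher and 13.7% lower), with a median log2 fold change of 0.49. At an unadjusted p under 0.05, 7 were higher and 2 lower, edgeR called 3 higher and 0 lower, and DESeq2 called 4 higher and 0 lower. Tyrobp (DAP12), the adaptor of Trem1, measured 51.0, 58.3 and 80.3 CPM in glands and 71.5, 104 and 182 CPM in tumors (log2 fold change 0.83, adjusted p = 0.0698, limma). It was higher in the tumor of every mouse, but the tissues overlapped and it was not called. Fcer1g, the Fc receptor gamma chain that pairs with Clec4e and Clec4d, was called higher (log2 fold change 1.29, adjusted p = 0.0470, limma), but the tissues overlapped and the call was lost in 8 of 15 alternatives. The kinase Syk had a log2 fold change of -0.51 and the scaffold Card9 of 0.59, and neither was called. Vav1, a guanine nucleotide exchange factor of hematopoietic cells, had the lowest log2 fold change of the list at -0.72 and was not called.

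Retnlg measured 16.3, 10.7 and 6.98 CPM in M11035, M11640 and M9232, whereas T11035, T11640 and T9232 held 2.79, 7.73 and 9.74 CPM. The ranges overlapped, and the order of the mice was reversed between the tissues. The means were 11.3 ± 4.67 and 6.75 ± 3.58 CPM (SD, n = 3 each), and the log2 fold change of -0.78 (SE 0.46, adjusted p = 0.204, limma) was not called in any of 15 alternatives, with adjusted p-values from 0.110 to 0.575. T11035 and T11640 were lower and T9232 higher than the gland of the same mouse, with within-mouse differences of -2.35, -0.45 and 0.45 on the log2 scale.

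Both relatives of Retnlg with a row were called lower. Retn (resistin), which mouse adipocytes secrete, fell from 60.0 ± 15.6 to 0.485 ± 0.243 CPM (SD, n = 3 each, log2 fold change -5.93, adjusted p = 3.41e-06, limma). Retnla (FIZZ1), a product of alternatively activated macrophages and adipose tissue, fell from 23.2, 203 and 60.9 CPM to 0.744, 1.97 and 1.20 CPM (log2 fold change -5.26, adjusted p = 3.98e-04, limma). All 8 adipocyte markers fell as well, Retn among them, and their part in these changes was not tested.

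Neutrophil genes outside the 8 are given by the compartment of their product, and the compartments were not tested against each other. Elane, Prtn3, Ctsg and Ly6g were not analysed here. Mpo (myeloperoxidase), a primary granule enzyme made by precursors, measured 6.30, 1.82 and 1.09 CPM in glands and 0.558, 0 and 0.300 CPM in tumors, where it was at or below the floor, and was called lower (adjusted p = 0.0243, limma), a call lost in 3 of 15 alternatives. Over the 3 libraries of each tissue, the pooled ratio of gland to tumor was 10.8 with an exact 95% interval of 4.32 to 34.6 (counting error only). Serpinb1a, which inhibits granule proteases, had a log2 fold change of -0.72 and was not called.

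Of 14 genes for secondary and tertiary granule proteins, 5 were called higher, 2 lower and 7 not. This stood beside 14.5% of all genes higher and 13.7% lower, so the count called lower is near its share. The 14 genes had a median log2 fold change of 0.00. Mmp9, the tertiary granule gelatinase that macrophages and keratinocytes also make, had the highest fold change (6.30 ± 1.43 CPM in glands and 78.6 ± 14.3 CPM in tumors, SD, n = 3 each, log2 fold change 3.54, adjusted p = 9.07e-06, limma). Ltf (lactoferrin), a secondary granule protein that mammary epithelium also secretes, had the lowest (103, 148 and 500 CPM in glands, 44.8, 22.3 and 14.8 CPM in tumors, log2 fold change -2.97, adjusted p = 0.00381, limma). Named after their values were seen, Ngp, a granule protein of maturing neutrophils, fell by 2.96, while Mmp8, the neutrophil collagenase, rose by 1.54. The Mmp8 call was lost in 3 of 15 alternatives.

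Of 30 other genes of the surface and cytoplasm of mature neutrophils, 19 were called higher, 4 lower and 7 not. Beside them, 14.5% of all genes were called higher and 13.7% lower. The 30 genes had a median log2 fold change of 1.66. BC100530, a stefin A gene, had the highest fold change (2.64, 1.16 and 1.09 CPM in glands, 497, 761 and 743 CPM in tumors, log2 fold change 8.34, adjusted p = 9.05e-07, limma). Several high members of the list, the stefin A genes and Asprv1 among them, are also made by epidermis, and the part of keratinocytes in their rise was not tested.

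The next 4 genes of the surface list were named after their values were seen. Cxcr2, the receptor of Cxcl1 and Cxcl5, measured 35.0, 23.8 and 57.0 CPM in glands and 91.2, 97.2 and 182 CPM in tumors (log2 fold change 1.68, adjusted p = 0.0055, limma). The formyl peptide receptors Fpr1 and Fpr2 rose by 1.75 and 2.58 and the integrin chain Itgam by 1.52 on the log2 scale, with the Fpr1 call lost without T9232 (adjusted p = 0.0583, limma). All tumors lay above all glands for each of them. Macrophages and monocytes carry some of them too. The summed macrophage markers overlapped between the tissues (333 to 1088 CPM in glands, 774 to 1198 CPM in tumors), with 1 of 10 called higher and 1 lower. The sum of the 8 inflammatory monocyte markers did not overlap (132 to 207 CPM in glands and 248 to 311 CPM in tumors). Of these markers, 4 were called higher (Cx3cr1, F10, Fcgr1 and Plac8) and 1, Ly6c2, was called lower (log2 fold change -1.06, adjusted p = 0.0383, limma). Ccr2, Ly6c1 and Chi3l3 were not called (log2 fold changes of 0.45, -0.39 and -0.30). The part of monocytes in the rise of Csf3r, Clec4d, Clec4e and Trem1 was not tested.

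**Figure D2:**
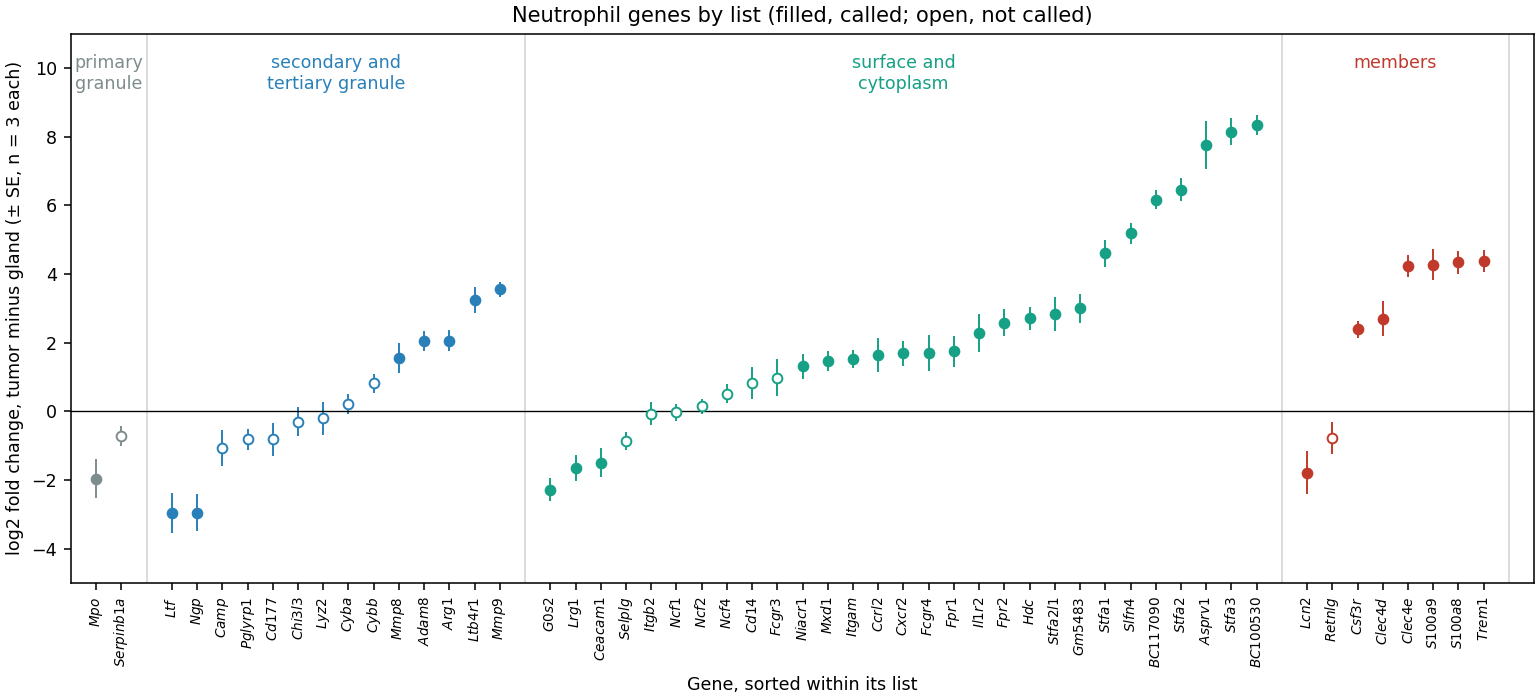
Log2 fold change (tumor minus gland, with SE, n = 3 mice each) of the reported neutrophil genes by list, with filled points for called genes. Granule genes lie on both sides of 0 (5 of 14 secondary and tertiary granule genes called higher), most surface and cytoplasmic genes lie above it (19 called higher, besides Csf3r), and the 8 members end with Trem1 at 4.37 and begin with Lcn2 at -1.79.

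Because Ptprc (CD45), carried by nearly all leukocytes, fell from 1333 ± 363 to 477 ± 44.0 CPM (SD, n = 3 each, log2 fold change -1.45, adjusted p = 6.86e-04, limma), the members were also set against it within each library. Csf3r amounted to 0.995, 1.11 and 1.21 CPM per 100 CPM of Ptprc in the glands and to 17.2, 12.1 and 20.1 in the tumors. Clec4e amounted to 0.204, 0.238 and 0.411 per 100 in the glands and to 13.1, 14.3 and 21.2 in the tumors. Retnlg, at 0.959, 1.11 and 0.524 per 100 in the glands and 0.653, 1.57 and 1.91 in the tumors, overlapped on this scale as well. Set against the summed pan-leukocyte markers, the fold of tumor over gland mean ratios was smaller. It was 9.63 against 14.9 per Ptprc for Csf3r and 36.8 against 57.0 for Clec4e. All B and T cell markers were called lower too, and their part in the fall of Ptprc was not tested.

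The 6 called genes also stood above the glands in every tumor when divided by the summed macrophage markers. For Csf3r this ratio was 5.07, 1.19 and 1.48 per 100 CPM in glands and 9.53, 5.34 and 8.58 per 100 CPM in tumors. M11035, with the lowest macrophage sum, had the highest ratio of the glands.

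**Figure D3:**
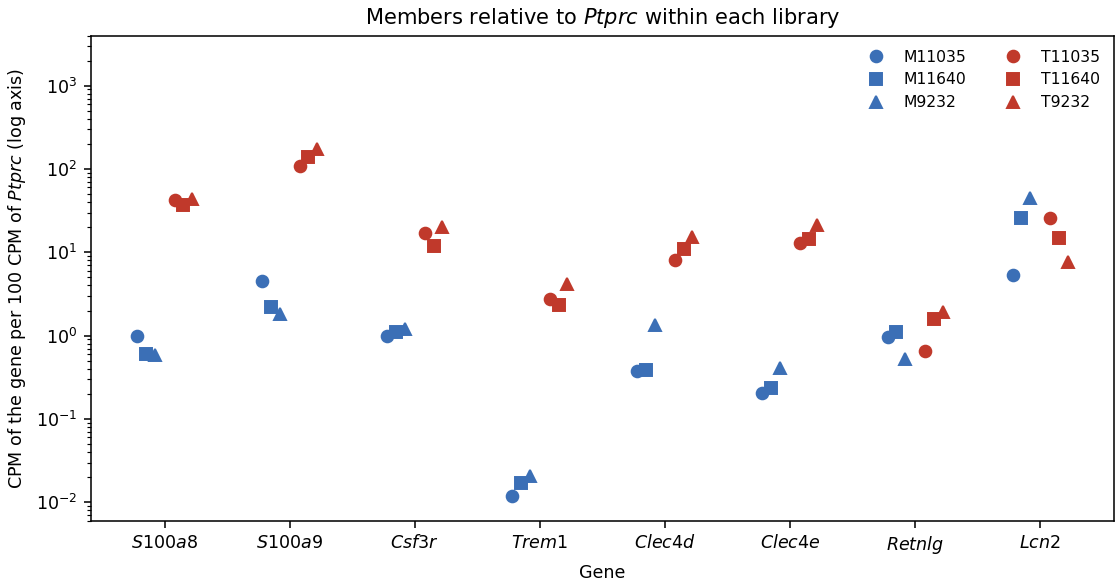
CPM of each gene per 100 CPM of Ptprc (log axis) in each library, with glands (M) in blue and tumors (T) in red. Csf3r lies near 1 in the 3 glands and between 12.1 and 20.1 in the 3 tumors, while Retnlg and Lcn2 overlap between the tissues.

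Lcn2 had the largest SE of the 8 genes. It measured 90.9, 251 and 593 CPM in M11035, M11640 and M9232 and 111, 73.7 and 39.0 CPM in T11035, T11640 and T9232. T11035 was above M11035, the gland of the same mouse, and the lowest gland lay between the tumors. The means were 312 ± 256 and 74.7 ± 36.3 CPM (SD, n = 3 each), a ratio of gland to tumor of 4.17, and the log2 fold change was -1.79 (SE 0.62, adjusted p = 0.0474, limma).

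The call of Lcn2 was at the edge of the threshold. With the mouse as a replicate block the adjusted p was 0.0719 (limma), and the call was lost. It was also lost when any library other than M11035 was left out, with the log2 fold change at -1.14 without M9232 and -1.39 without T9232 and at -2.49 (adjusted p = 0.00481, limma) without M11035. The within-mouse differences were 0.29 for T11035, -1.76 for T11640 and -3.91 for T9232 on the log2 scale, so the direction was not shared by all 3 mice.

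The level of Lcn2 in the glands ran in the same order over the mice as 2 products of secretory mammary epithelium. Ltf was at 103, 148 and 500 CPM in M11035, M11640 and M9232, and Csn2 (beta-casein), a milk protein chosen after its values were seen, was at 506, 670 and 14121 CPM. Among the tumors, Csn2 was at 62.5 CPM in T11035, at 32.8 CPM in T11640 and lowest in T9232, again in the order of Lcn2. Elf5, Prlr, Esr1 and Pgr kept this order in the tumors as well. Kit, Krt18 and Krt19 did not, and Krt8 ran the opposite way (38.3, 48.5 and 77.6 CPM in T11035, T11640 and T9232). The whole list of luminal mammary markers summed to 942 to 15120 CPM in the glands and 246 to 366 CPM in the tumors. Of these markers, 7 of 10 were called lower and 3 higher (Krt8, Krt18 and Krt19), and Wap, a whey protein, was at 0 in T9232. In the glands Wap did not keep the order of Lcn2 (4.27, 1.49 and 223 CPM in M11035, M11640 and M9232). Esr1 and Pgr did not keep it either, while the other luminal markers did. The order was not particular to epithelial genes, since the summed macrophage markers kept it in the glands too (333, 905 and 1088 CPM in M11035, M11640 and M9232). The part of secretory epithelium in the level of Lcn2 was not tested.

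**Figure D4:**
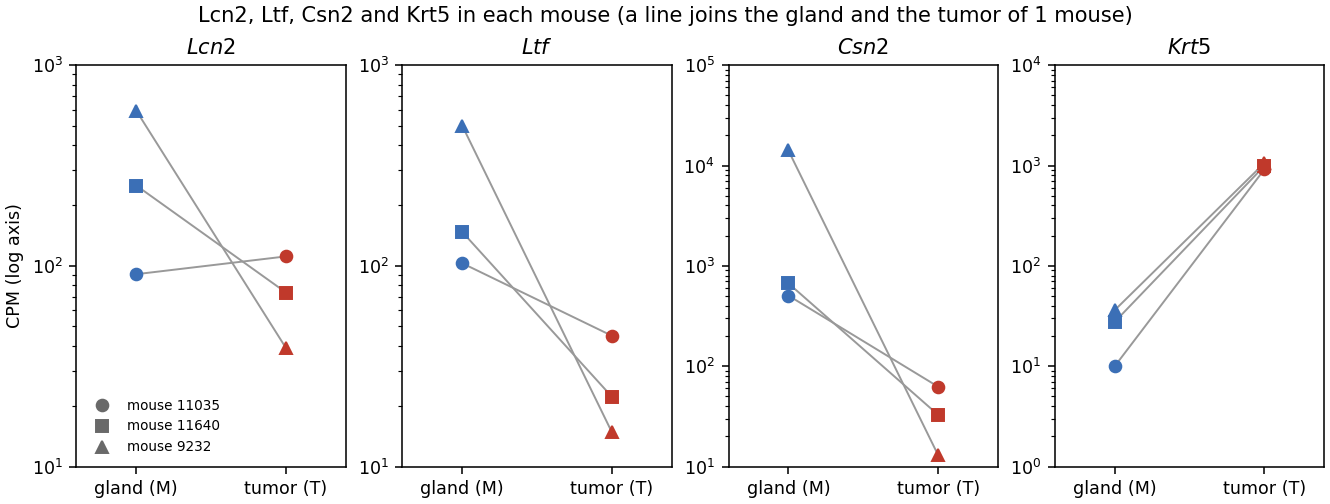
CPM (log axis) of Lcn2, Ltf, Csn2 and Krt5 in the gland and the tumor of each mouse, with a line for each mouse. The lines of Lcn2 cross, with T11035 slightly above M11035 and T9232 at 39.0 CPM against 593 CPM in M9232, those of Ltf and Csn2 all fall, and those of Krt5 all rise.

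Most of the lipocalin list went down in the tumors. Of the 5 others with a row, 4 were called lower and 1 not, beside 13.7% of all genes lower. Rbp4, the retinol carrier that liver and fat secrete, fell by 4.91, and the acute phase genes Orm1, Orm2 and Orm3 fell by 2.62, 1.29 and 2.09 on the log2 scale. The Orm2 call was lost in 4 of 15 alternatives, and how reads were assigned among the 3 similar Orm genes was not checked. Apod, at 18.1, 139 and 131 CPM in glands and 22.7, 38.8 and 79.9 CPM in tumors, was not called. Among genes for the receptors of lipocalin 2, Slc22a17 stayed low in both tissues (2.36 ± 0.675 and 2.46 ± 0.626 CPM, SD, n = 3 each, log2 fold change 0.05, adjusted p = 0.911, limma), and Lrp2 (megalin) fell from 16.3, 3.30 and 9.03 CPM to 1.12, 1.31 and 1.35 CPM (log2 fold change -2.27, adjusted p = 0.00632, limma).

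Per kb of exon, the order of mean levels in the glands was Lcn2 (135 CPM per kb), S100a9 (77.4), S100a8 (25.9), Retnlg (18.6), Clec4d (7.03), Csf3r (3.52), Clec4e (1.49) and Trem1 (0.0708, below the floor). Ranges over the 3 glands overlapped between neighbors from Lcn2 down to Csf3r and did not overlap from Csf3r to Clec4e or from Clec4e to Trem1. In the tumors the order was S100a9 (1308 CPM per kb), S100a8 (502), Clec4d (41.4), Lcn2 (32.4), Clec4e (31.1), Csf3r (19.0), Retnlg (11.1) and Trem1 (4.89). S100a9 and S100a8 stood clear of each other and of the rest, and all neighbors below S100a8 overlapped from Clec4d down.

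The genes with the most similar profiles over the 6 libraries were found by the root mean square distance between centered log2(CPM + 0.5) values, with only genes of a mean of 1 CPM or more compared. For S100a8 these were Tmem40, Pnpla1 and 1810041L15Rik (distances of 0.25, 0.26 and 0.28), and for S100a9 they were Pnpla1, Tmem40 and Dsc2 (0.30, 0.30 and 0.33). Dsc2 encodes a desmosomal cadherin and Pnpla1 an enzyme of epidermal ceramide synthesis. For Trem1 they included Defb14, an epithelial beta-defensin, and Trim71 (0.17 and 0.24).

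For Clec4e they were the growth factor genes Hbegf and Tgfa and the binding protein gene Igfbp2 (0.20, 0.21 and 0.19), and for Csf3r they were Styk1, Tnfrsf12a and Wnt10a (0.12, 0.14 and 0.17). For Clec4d they were Ccl12, Clec4n and Slc5a1 (0.26, 0.30 and 0.30), which include the chemokine MCP-5 and Dectin-2. For Retnlg they were Chrna2, Ppbp and Gm129 (0.16, 0.18 and 0.20), where Ppbp is the platelet basic protein, a Cxcr2 ligand. For Lcn2 they were Hhipl2, Cp and Car2 (0.28, 0.28 and 0.29), where Cp is ceruloplasmin, a secreted copper oxidase, and Car2 a carbonic anhydrase. The 6 points share the 3 mice and the 2 tissues, so these distances are descriptions. Of the 24 pairs in all, 14 were also found with a pseudocount of 1 and 3 of 24 with Pearson's r as the measure.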

How the data were processed

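RNA-Seq of 3 BK5.ATF3 mammary tumors and the 3 adjacent normal glands of the same mice was used. Total RNA was extracted with Trizol and libraries were made with the NuGEN Ovation system. Per the submitters' processing notes and the study's methods, the authors used CASAVA 1.8.2, mapped read pairs to mm9 with TopHat2 2.0.3, counted fragments per gene with HTSeq 0.5.3p9 and normalized them with edgeR 3.6.1. Genes with fewer than 10 fragments over all libraries had been removed, and the lowest total was 11. The authors deposited a normalized signal per gene, in CPM on edgeR's effective library size. Because the columns sum to 952151 to 1041166 and not to the same total, their unit is called a signal here, and the test planned for CPM was kept. All values (100%) were whole multiples of 1 step per library, within 0.01 fragment, so fragments were recovered by division.

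All 15280 genes were tested with limma 3.58.1 (R 4.3.3, mean-variance trend) on log2(CPM + 0.5). P-values are two-sided and were adjusted by the Benjamini-Hochberg method, and the call needed an adjusted p no higher than 0.05 with a log2 fold change no smaller than 1 in size. Where replicates are cited, they are separate mice. Ratios within a library and folds of means were computed from CPM, and per kb values from the exon union of GENCODE vM1 on mm9, where positions were also taken. Intervals of pooled fragments are exact at 95% and cover counting error only. Transcripts were compared with BLAST 2.17.0. The fit was tested on simulated data with known changes. Libraries of 1 tissue differed beyond sampling noise (chi-square per degree of freedom of 13.0 or more), so none was a copy.

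Each gland and its tumor share 1 animal, so the mouse number pairs them. Their deviations from the group means correlated with r = 0.107, 0.151 and 0.0168 for T11035, T11640 and T9232 and their glands (14712 genes, each with a mean of 1 CPM or more). The fit without the block is the one reported, since the study's methods do not state a block, and the block is an alternative. The others were other pseudocounts and scalings, a filter on low values, no trend, edgeR 4.0.16 and DESeq2 1.42.0 on recovered fragments and leaving out each library.

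The members, 13 context lists and 13 marker lists were chosen with earlier results of these data known. Genes named in the text are the members, every gene of a list of up to 10 genes with a row, the highest and lowest gene of a longer list (mean of at least 1 CPM), and ligands, receptors, adaptors or partners of a member. For each member, the 3 genes of most similar profile were also named. Some results under this rule are not reported here. Other named genes are said to have been chosen after their values were seen. The study's array, PCR and human data were not used here.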

Additional observations from a re-analysis of the deposited data

How the results depend on the processing

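The 6 genes called higher stayed at 6 in all 15 alternatives. The count of genes called lower, which is Lcn2 alone, went from 1 to 0 with the replicate block by mouse and to 0 without the mean-variance trend (adjusted p = 0.0719 and 0.0809, limma), and ran from 0 to 1 when single libraries were left out. The log2 fold change of Lcn2 ran from -2.49 to -1.14 over the alternatives, with adjusted p-values from 0.00481 to 0.168 (limma, edgeR or DESeq2). Retnlg was not called in any. Over the context lists, 57 to 71 genes were called higher (67 as reported) and 20 to 27 lower (24 as reported), with 68 and 24 under the block. The block ended no other call of a member.

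Some genes that were not called changed sign when 1 library was left out. The log2 fold change of Csf1r ran from -0.20 (without M11035) to 0.62, of Csf2ra from -0.0094 (without M11035) to 0.52, of Csf2rb2 from -0.17 to 0.064 (without T11035, and 0.037 without M9232), of Tlr4 from -0.47 to 0.12 (without M9232, and 0.075 without M11640) and of Ly96 from -0.44 to 0.15 (without M9232). Bsg ran from -0.25 (without T9232) to 0.32, and Slc22a17 from -0.11 (without T11035) to 0.24. The cause was not tested. Depth limits Trem1 in glands and Csf3 and Mpo, which lay at or near the floor of 3 fragments in a tissue.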

Other observations

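Of the 21 genes other than Lcn2 on the list of secreted antimicrobial proteins of epithelium, 12 were called higher, 1 (Ltf) lower and 8 not (beside 14.5% of all genes higher and 13.7% lower), with a median log2 fold change of 1.64. Pglyrp4, a peptidoglycan recognition protein of skin, had the highest fold change, from 0, 0 and 0.137 CPM in the glands to 25.1, 44.3 and 43.6 CPM in the tumors (1 fragment against 764, pooled ratio of 710 with an exact 95% interval of 127 to 28074, counting error only). Ltf had the lowest, at -2.97 on the log2 scale (adjusted p = 0.00381, limma).

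The beta-defensins, small antimicrobial peptides of epithelia, were named after their values were seen. Defb3, Defb4 and Defb14 were at 0 in all 3 glands and at 10.5 to 14.2, 10.6 to 13.6 and 9.30 to 16.3 CPM in the tumors, at least 75.6-fold, 76.8-fold and 75.3-fold higher against a floor of 3 fragments over the glands. Defb1 rose from 0.716 ± 0.920 to 59.3 ± 21.6 CPM (SD, n = 3 each, log2 fold change 5.79, adjusted p = 5.01e-05, limma), and all tumors lay above all glands. All 12 keratinocyte markers rose in the same libraries, and their part in these values was not tested.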
